A study of Mus musculus with 15 samples.

Results

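The genes described here encode the SR proteins, hnRNPs and splicing kinases of mouse pre-B cells, together with the Tra2 proteins, the SR-repetitive matrix proteins and the U2AF and SF3 factors that recognise the 3′ end of an intron. Members were taken by a rule on the gene symbol. The symbol rule found 52 of the 11551 genes that occur in any of the 4 deposited tables. They were 10 Srsf genes, 2 Tra2 genes, 2 Srrm genes, 6 kinases (Clk1 to Clk4, Srpk1 and Srpk2), 12 U2af and Sf3 genes, and 20 Hnrnp genes. The tables list only genes that had passed the authors' own test in at least 1 comparison, so the 11551 genes are themselves a selected set.

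RNA was sequenced from 15 libraries in 5 groups of 3. All groups were Abelson-transformed pre-B cells, which are B-cell progenitors driven by the v-Abl kinase, at passage 10 to 15, and all had been treated for 48 h with imatinib, which blocks that kinase. Rag_SPIC_tet_DOX_shBCLAF1 (DOX_shBCLAF1) cells were Rag-/- cells with a tetracycline-inducible SPIC construct, given doxycycline and labelled with a short hairpin RNA against BCLAF1. Rag_SPIC_tet_DOX (DOX) cells were the same with doxycycline and no such hairpin label. Art_shBCLAF1 cells were Art-/- cells labelled with the hairpin, and Art cells were Art-/- cells without it; their labels name neither a SPIC construct nor doxycycline. Rag_SPIC_tet_NoDOX (NoDOX) cells carried the inducible construct in Rag-/- cells without doxycycline. No label names a control hairpin, and none says whether the 3 libraries of a group were separate cultures, so the p-values speak only of the spread among the sequenced samples, which may be technical. Induction of SPIC and exposure to doxycycline cannot be told apart in DOX against NoDOX, nor can the genotype and the construct in Art against NoDOX.

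SR proteins bind exonic enhancers through RNA-recognition motifs and recruit the spliceosome through a domain rich in arginine and serine. SRPK kinases phosphorylate that domain in the cytoplasm and CLK kinases phosphorylate it further in the nucleus, which sets where SR proteins are and how they act. U2AF reads the polypyrimidine tract and the terminal AG of an intron, and SF3a and SF3b, parts of the U2 snRNP, hold the branch point. hnRNPs coat nascent RNA and often oppose SR proteins at the same exons, and Hnrnpll is known in lymphocytes for control of the alternative exons of Ptprc, which encodes CD45. Many genes of these families carry a poison exon whose inclusion sends the transcript to nonsense-mediated decay. The deposited values are per gene, so productive and poison-exon transcripts were counted together.

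Promoter windows are shown for 4 members that hold a motif named below and whose mRNA moved in the comparisons described further on. Clk4 and Tra2a were both lower in DOX cells than in NoDOX cells, Sf3a1 was the 1 member that was higher there, and Hnrnpd differed strongly between the 2 lines in its response to the hairpin label. Each window holds the 250 bases before 1 annotated start in RefSeq's GRCm38.p6, the first listed for the gene. It is written 5′ to 3′ on the gene's strand. For Clk4 the GENCODE M21 annotation begins further upstream, at chr11:51261730, so this window lies inside that gene. Capitals mark a match on either strand to 1 of 4 motifs, namely the CRE TGACGTCA, the E-box CACGTG, the purine-rich ETS motif GAGGAAGT or the ETS motif CCGGAAGT.
Clk4 (chr11:51262864-51263113, plus strand): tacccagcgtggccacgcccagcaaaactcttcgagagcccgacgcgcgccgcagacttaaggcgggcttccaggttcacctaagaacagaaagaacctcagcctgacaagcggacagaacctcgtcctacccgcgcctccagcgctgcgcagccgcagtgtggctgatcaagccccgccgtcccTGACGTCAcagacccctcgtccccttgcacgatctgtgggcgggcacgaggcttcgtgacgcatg
Tra2a (chr6:49264053-49264302, minus strand): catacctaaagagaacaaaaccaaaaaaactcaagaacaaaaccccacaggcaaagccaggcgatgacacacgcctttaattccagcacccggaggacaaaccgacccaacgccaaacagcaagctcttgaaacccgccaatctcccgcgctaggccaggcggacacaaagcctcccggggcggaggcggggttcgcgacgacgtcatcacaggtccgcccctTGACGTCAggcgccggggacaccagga
Sf3a1 (chr11:4160104-4160353, plus strand): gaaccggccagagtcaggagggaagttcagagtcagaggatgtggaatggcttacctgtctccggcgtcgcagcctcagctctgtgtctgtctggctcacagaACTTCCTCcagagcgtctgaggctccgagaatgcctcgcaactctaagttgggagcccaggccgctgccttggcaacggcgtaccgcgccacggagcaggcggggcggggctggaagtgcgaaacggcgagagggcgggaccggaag
Hnrnpd (chr5:99978939-99979188, minus strand): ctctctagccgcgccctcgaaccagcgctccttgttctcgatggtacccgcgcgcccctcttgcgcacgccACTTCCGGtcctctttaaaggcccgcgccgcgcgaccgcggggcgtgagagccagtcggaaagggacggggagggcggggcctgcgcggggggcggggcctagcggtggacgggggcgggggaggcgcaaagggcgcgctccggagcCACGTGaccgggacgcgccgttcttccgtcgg
The full CRE in Clk4 began 65 bases before the start and that in Tra2a 27 bases before it. Sf3a1 held the purine-rich ETS motif in reverse complement, and Hnrnpd held an E-box 32 bases before the start and CCGGAAGT in reverse complement further upstream. Windows were found for 46 of the 52 members, not including U2af2, Hnrnpll, Hnrnpul2, Clk1, Sf3b5 and Sf3b4. TGACGTCA occurred in 2 of these 46 windows (4.35%), those of Clk4 and Tra2a, against 1.62% of all 27025 windows of that length. Clk2, Srsf3, Srsf5, Srsf11 and Hnrnph1 were also called lower in DOX against NoDOX, and their windows lacked it. CACGTG occurred in 3 (6.52%, against 6.05%), GAGGAAGT in 3 (6.52%, against 2.44%) and CCGGAAGT in 6 (13%, against 2.93%). Besides Sf3a1, GAGGAAGT was in the windows of Hnrnpf and Hnrnph2, which were not called in DOX against NoDOX. Such a match is a description of the sequence and not evidence that a factor binds there.

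The libraries held 17.2 to 27.1 M effective reads, apart from Art replicate 3 with 5.81 M. That library stood apart from Art replicates 1 and 2 by a root-mean-square log2 difference of 0.95 and 0.94 over the 52 members, and DOX replicate 2 differed from DOX replicate 1 by 0.42, whereas pairs within the other 3 groups differed by 0.06 to 0.15. Some results that rest on these libraries are given with and without them, and others only with them. Bclaf1 mRNA, the hairpin's target, was 8.04 ± 0.06 log2 CPM (SD, n = 3) in DOX_shBCLAF1 libraries against 7.73 ± 0.04 in DOX libraries, and 8.32 ± 0.03 in Art_shBCLAF1 libraries against 7.32 ± 0.79 in Art libraries. Art replicates 1, 2 and 3 had 7.81, 7.75 and 6.41 log2 CPM of Bclaf1. The targeted gene therefore went against the labels, and these groups are called the libraries labelled shBCLAF1. Spic was 7.46 ± 0.04 in DOX_shBCLAF1, 4.21 ± 0.44 in DOX, 4.54 ± 0.24 in Art_shBCLAF1, 0.44 ± 0.36 in Art and 0.82 ± 0.62 in NoDOX libraries, so it was higher with the shBCLAF1 label in both lines.

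Other features of the libraries moved with the groups as well. The 7 B-lineage markers summed to 4711 to 4857 CPM in DOX_shBCLAF1, 4063 to 5692 in DOX, 3530 to 3782 in Art_shBCLAF1, 6373 to 10057 in Art and 5287 to 5367 in NoDOX libraries. In Art_shBCLAF1 against Art, 6 of these 7 were lower and none higher, with a median log2 fold change of -0.93. The 5 of 7 myeloid markers found in the tables summed to 58.7 to 64.1 CPM in DOX_shBCLAF1, 217 to 311 in DOX, 80.3 to 97.7 in Art_shBCLAF1, 695 to 927 in Art and 331 to 343 in NoDOX libraries. Mpo and Elane, defining myeloid genes, were not among the genes in the tables, nor were any of the 5 erythroid and megakaryocyte markers. Lck and Tcf7, the 2 of 6 T and NK markers in the tables, summed to 21.2 to 22.6 CPM in Art_shBCLAF1 and 119 to 128 CPM in Art libraries, and to 42.2 to 59.3 CPM in the other groups. The 4 plasma-cell markers summed to 142 to 315 CPM. Myc averaged 9.21 ± 0.08 log2 CPM in DOX_shBCLAF1, 6.21 ± 2.21 in DOX, 8.79 ± 0.11 in Art_shBCLAF1, 4.07 ± 0.20 in Art and 5.60 ± 0.18 in NoDOX libraries (SD, n = 3). The 12 proliferation genes, which include Myc, summed to 3188 to 3436 CPM in DOX_shBCLAF1 and 2869 to 3417 in DOX libraries. Their sums were 4469 to 5115 in Art_shBCLAF1, 1297 to 1855 in Art and 3219 to 3277 in NoDOX libraries. Of these 12, 4 were called higher and 5 lower in DOX_shBCLAF1 against DOX (median -0.05), beside 28.5% and 25.1% of all genes. The part of these differences in the results on splicing factors was not tested. In bulk RNA, fewer cells of a type and less RNA per cell cannot be told apart.

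Levels spanned a wide range. Per kilobase of exon, and averaged over the 5 group means, Hnrnpa0 (7.39 log2 CPM per kb), Hnrnpa2b1 (7.33), Hnrnpab (7.13) and Hnrnpul1 (7.09) were the most abundant members. Hnrnpll (0.77) and Hnrnpa1 (1.97) were the least abundant. Hnrnpll also varied most, with group means 1.89 log2 units apart. Some levels are uncertain because of similar or overlapping loci. Of the 50-base windows of Sf3b4 exons, 43.6% also occur in other loci, and the same holds for 36.8% of those of Hnrnpf, 28.2% of those of Hnrnpa1, 26.9% of those of Hnrnpa3 and 21.7% of those of U2af1. Exons overlap those of other annotated genes over 66.1% of their bases in U2af1l4, 43% in Srsf4, 29.1% in Hnrnpab and 26.5% in Hnrnpf. The share was 25.3% in Srsf2, 16.1% in Sf3a2 and 15.2% in Clk3. How the authors' counting treated such reads and the strand was not given in the sources used here.

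**Figure D1:**
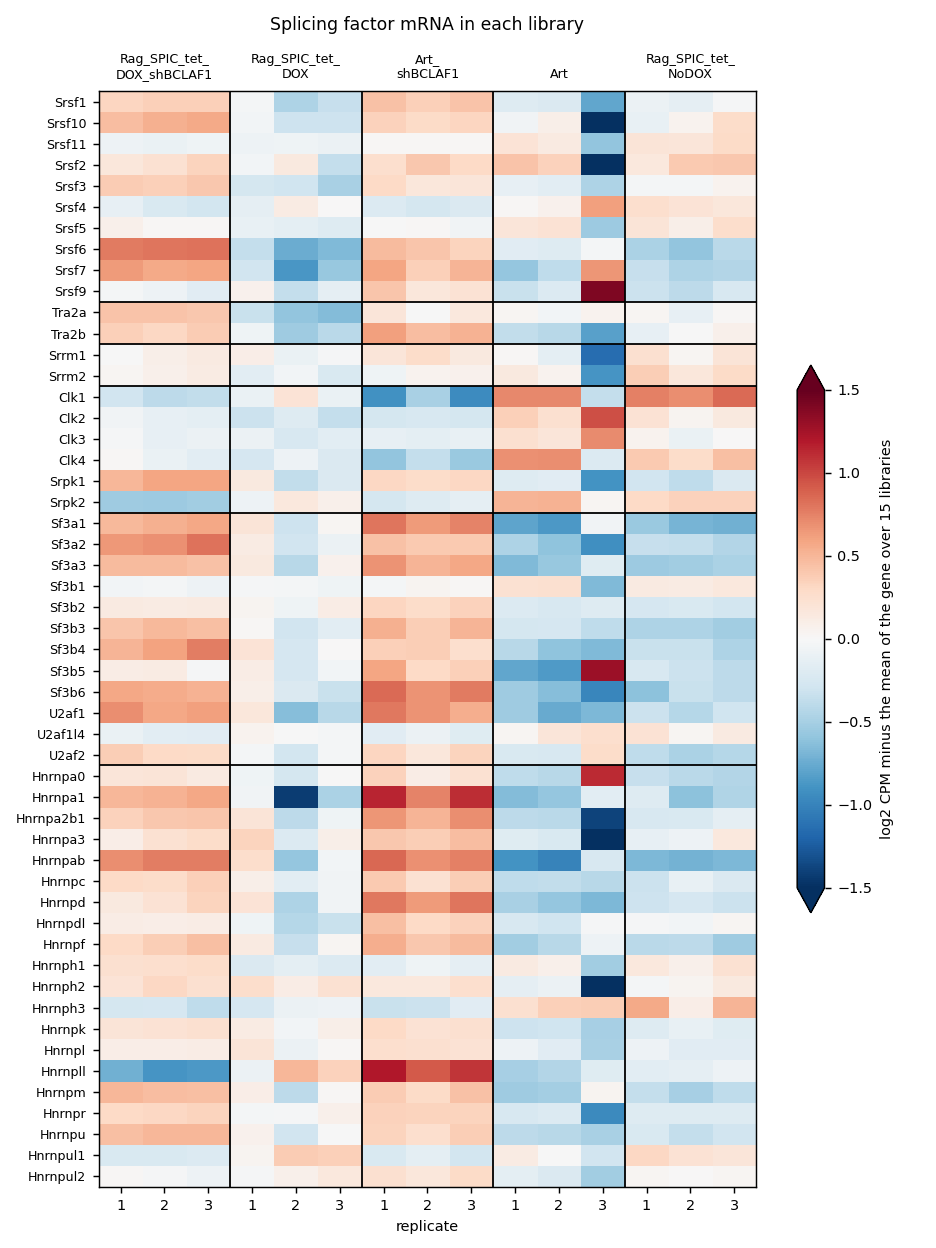
Each row is a member, grouped by class, each column is a library with its replicate number, and colour is the log2 CPM of that library minus the mean of the gene over the 15 libraries. The libraries of DOX_shBCLAF1 and Art_shBCLAF1 are high for most U2af, Sf3 and Srsf genes, Clk1 and Srpk2 are low in them, and Art replicate 3 differs from its group in many rows.

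The comparisons of libraries labelled shBCLAF1 with those without the label gave the most calls among these genes. In the Rag-/- SPIC line, DOX_shBCLAF1 against DOX, 28 members were higher and 4 lower at a limma adjusted p below 0.05. Over all genes tested, 28.5% were higher and 25.1% lower by the same rule, so the share of higher members was above that of all genes and the share of lower members below it. In the Art-/- line, Art_shBCLAF1 against Art, 27 members were higher and 6 lower, where 25% of all genes were higher and 24.1% lower. Without Art replicate 3 these counts were 36 higher and 13 lower, beside 40.6% and 39.5% of all genes. With the libraries centred on their medians they were 19 higher and 8 lower, and the median of all genes in that comparison was then -0.18 instead of 0.05. The share of all genes called after centring is not given here. Of the calls, 22 of 32 in the Rag-/- SPIC line and 19 of 33 in the Art-/- line also passed in each of the 6 fits that left out 1 library.

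DOX against NoDOX, which asks what followed doxycycline in cells with the inducible SPIC construct, gave 1 member higher and 8 lower, where 3.16% of all genes were higher and 8.67% lower. These calls did not hold when any of several libraries was left out. No member passed without DOX replicate 3, without NoDOX replicate 1 or without NoDOX replicate 3. In the first of these fits only 0.502% of all genes passed, and the shares in the NoDOX fits are not given here. Without DOX replicate 2, 17 members were higher and 13 lower, beside 20% and 19.6% of all genes. Art against NoDOX, which compares the 2 lines without the label, gave no called member with limma, while 2.58% of all genes were higher and 2.56% lower; at an unadjusted p below 0.05 there were 4 members, where 21.7% of all genes passed. Without Art replicate 3, 7 members were higher and 15 lower, beside 23.2% and 24.2% of all genes. Art libraries serve in both Art_shBCLAF1 against Art and Art against NoDOX, and DOX libraries in both DOX_shBCLAF1 against DOX and DOX against NoDOX, so these comparisons are not independent. The authors' deposited tables listed more members: 37 higher and 8 lower in DOX_shBCLAF1 against DOX (45.8% and 36.3% of all genes), and 37 and 13 in Art_shBCLAF1 against Art (42.7% and 42%). For DOX against NoDOX the authors' deposited table listed 24 higher and 23 lower (33.1% and 34%), and for Art against NoDOX 7 and 20 (27.4% and 27.9%).

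**Figure D2:**
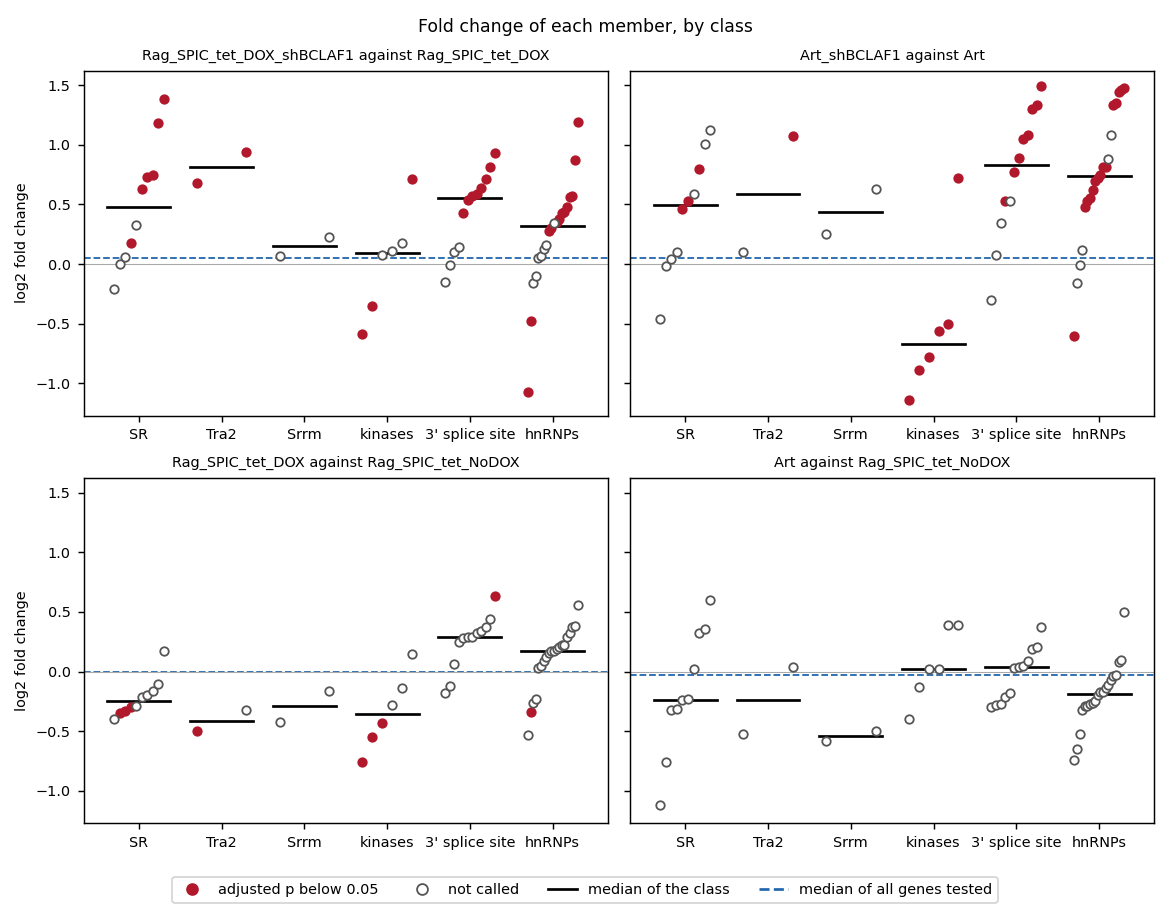
Each panel is 1 comparison, each point is 1 member placed by class on the horizontal axis and by its log2 fold change on the vertical axis, and filled markers are called members, open markers members that were not called, short lines class medians and the dashed line the median of all genes. In DOX_shBCLAF1 against DOX and in Art_shBCLAF1 against Art the U2af and Sf3 genes lie mostly above 0 (medians 0.55 and 0.83), and the kinases have medians of 0.10 and -0.67.

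Several SR protein genes were higher with the shBCLAF1 label. In DOX_shBCLAF1 against DOX, 6 of 10 were higher and none lower, with a median log2 fold change of 0.48 against 0.05 over all genes. By the same rule 28.5% of all genes were higher and 25.1% lower. Srsf6, which binds exonic enhancers and has been studied in tau and skin splicing, had 9.14, 9.16 and 9.17 log2 CPM in DOX_shBCLAF1, 8.0, 7.62 and 7.70 in DOX, 8.83, 8.77 and 8.69 in Art_shBCLAF1, 8.19, 8.17 and 8.33 in Art and 7.89, 7.77 and 7.96 in NoDOX libraries. All libraries labelled shBCLAF1 lay above all libraries without the label. The log2 fold change of Srsf6 was 1.38 (SE 0.10, limma adjusted p = 0.000349) in DOX_shBCLAF1 against DOX and 0.53 (SE 0.11, limma adjusted p = 0.00859) in Art_shBCLAF1 against Art. The call in the Art-/- line was lost without Art_shBCLAF1 replicate 1 (limma adjusted p = 0.0514).

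Srsf7, a partner of the mRNA export receptor, had 7.89, 7.82 and 7.84 log2 CPM in DOX_shBCLAF1 and 6.96, 6.37 and 6.68 in DOX libraries, and rose by 1.18 (SE 0.14, limma adjusted p = 0.00131). It had 7.84, 7.61 and 7.76 in Art_shBCLAF1, 6.67, 6.87 and 7.91 in Art and 6.90, 6.78 and 6.81 in NoDOX libraries. Art replicate 3 was the highest library of that line, and the difference of 0.59 did not pass (SE 0.32, limma adjusted p = 0.18); without that library it was 0.97 (limma adjusted p = 1.08e-06). Srsf10, which acts as a repressor or an activator of exons according to its phosphorylation, had 6.65, 6.72 and 6.76 in DOX_shBCLAF1, 6.14, 5.88 and 5.88 in DOX, 6.53, 6.47 and 6.51 in Art_shBCLAF1, 6.13, 6.27 and 4.08 in Art and 6.07, 6.24 and 6.46 in NoDOX libraries. It was higher in DOX_shBCLAF1 than in DOX cells (0.75, SE 0.09, limma adjusted p = 0.00119) with no overlap of the groups. Its difference of 1.01 in Art_shBCLAF1 against Art (SE 0.57, limma adjusted p = 0.188) was 0.30 (limma adjusted p = 0.00123) without Art replicate 3.

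Srsf3, the smallest SR protein and a link between splicing and export, had 7.55, 7.53 and 7.57 log2 CPM in DOX_shBCLAF1, 6.91, 6.87 and 6.68 in DOX, 7.47, 7.34 and 7.35 in Art_shBCLAF1, 7.05, 7.01 and 6.71 in Art and 7.14, 7.14 and 7.22 in NoDOX libraries. Its levels ran in the order DOX_shBCLAF1, Art_shBCLAF1, NoDOX, Art, DOX, and the ranges of Art and DOX overlapped. Srsf3 rose by 0.73 (SE 0.07, limma adjusted p = 0.000743) in DOX_shBCLAF1 against DOX and by 0.46 (SE 0.13, limma adjusted p = 0.0287) in Art_shBCLAF1 against Art, and fell by 0.35 (SE 0.08, limma adjusted p = 0.0369) in DOX against NoDOX. The call in the Art-/- line was lost in 4 of 6 fits that left out 1 library, Art replicate 2 or any Art_shBCLAF1 replicate (limma adjusted p up to 0.116), and passed without Art replicate 3. Srsf1, the founding SR protein, had 9.16, 9.19 and 9.19 in DOX_shBCLAF1, 8.81, 8.37 and 8.49 in DOX, 9.28, 9.19 and 9.26 in Art_shBCLAF1, 8.64, 8.62 and 8.06 in Art and 8.75, 8.70 and 8.82 in NoDOX libraries. Again no library without the label reached those with it. The log2 fold changes of Srsf1 were 0.63 (SE 0.12, limma adjusted p = 0.00552) in the Rag-/- SPIC line and 0.80 (SE 0.18, limma adjusted p = 0.012) in the Art-/- line, and the call in the Art-/- line was lost without Art_shBCLAF1 replicate 1 or 3 (limma adjusted p up to 0.0531).

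Not every Srsf gene followed. Srsf2, a splicing activator that also acts in transcription elongation, had 5.42, 5.48 and 5.59 log2 CPM in DOX_shBCLAF1, 5.21, 5.40 and 4.90 in DOX, 5.50, 5.66 and 5.55 in Art_shBCLAF1, 5.68, 5.60 and 2.08 in Art and 5.41, 5.64 and 5.66 in NoDOX libraries. The value of 2.08 in Art replicate 3 stood alone, and the difference of 1.12 (SE 0.95, limma adjusted p = 0.367) in Art_shBCLAF1 against Art became -0.07 (limma adjusted p = 0.396) without that library. The SR genes that passed in Art_shBCLAF1 against Art were 3, namely Srsf1, Srsf6 and Srsf3, and the class median was 0.50. There 25% of all genes were higher and 24.1% lower, so the share of higher SR genes was near that of all genes. Without Art replicate 3, 6 SR genes were higher and 3 lower, beside 40.6% and 39.5% of all genes, and the class median was 0.33. In DOX against NoDOX, 3 passed and all 3 were lower: Srsf3, Srsf5 at -0.33 (SE 0.07, limma adjusted p = 0.032) and Srsf11 at -0.30 (SE 0.07, limma adjusted p = 0.0365). These last 3 calls were each lost in 4 of 6 fits that left out 1 library, which were those without DOX replicate 3 or without any NoDOX replicate (limma adjusted p up to 0.187). The median of the class in DOX against NoDOX was -0.25, where that of all genes was 0.00. In that comparison 3.16% of all genes were called higher and 8.67% lower.

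**Figure D3:**
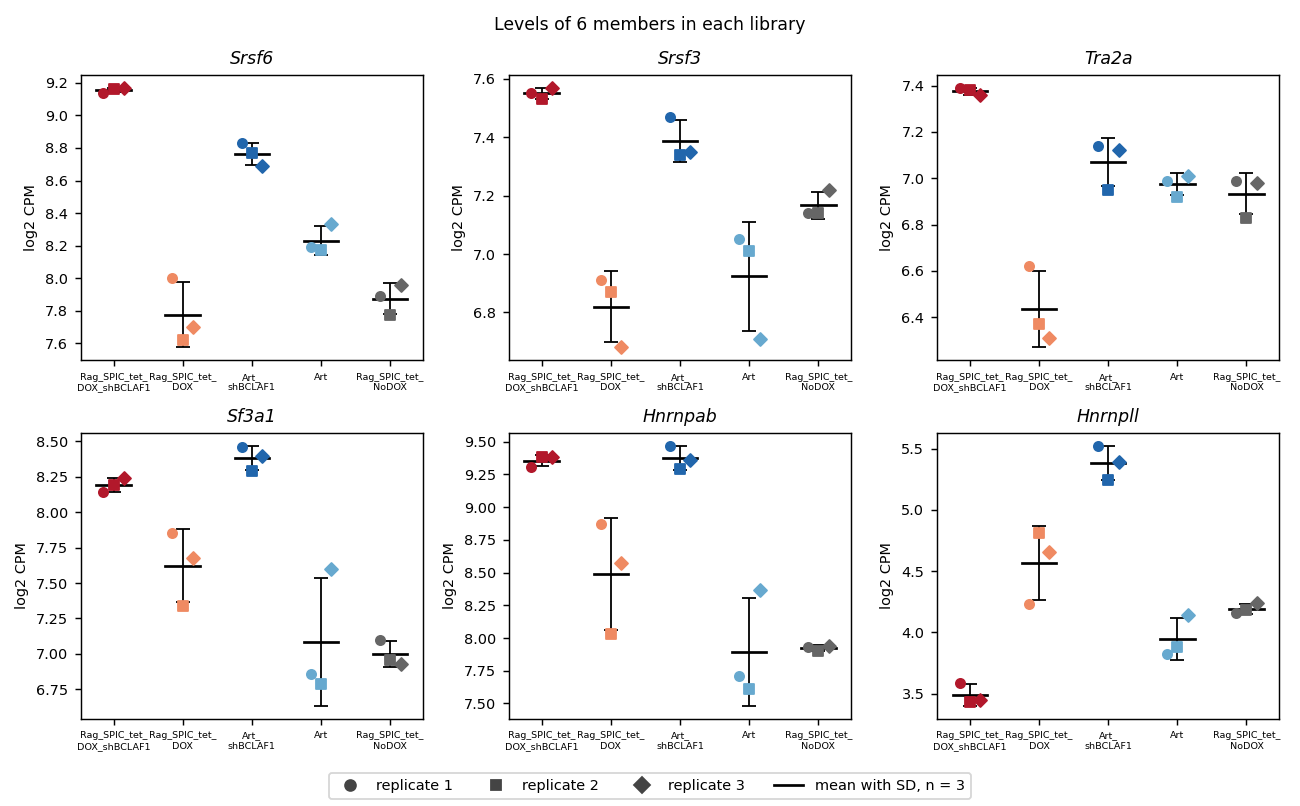
Each panel shows 1 gene, with the log2 CPM of every library by group, the replicate number as the marker's shape, and the group mean with its SD (n = 3) as lines. Srsf6, Srsf3, Sf3a1 and Hnrnpab are higher in the libraries labelled shBCLAF1 of both lines, Tra2a differs mainly between DOX_shBCLAF1 and DOX, and Hnrnpll is lowest in DOX_shBCLAF1 and highest in Art_shBCLAF1.

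Tra2a and Tra2b are paralogous sequence-specific activators that bind GAA-rich enhancers. Tra2b was higher with the label in both lines, and Tra2a was called in the Rag-/- SPIC line. Tra2a had 7.39, 7.38 and 7.36 log2 CPM in DOX_shBCLAF1, 6.62, 6.37 and 6.31 in DOX, 7.14, 6.95 and 7.12 in Art_shBCLAF1, 6.99, 6.92 and 7.01 in Art and 6.99, 6.83 and 6.98 in NoDOX libraries. DOX libraries were the lowest group and DOX_shBCLAF1 libraries the highest, while Art_shBCLAF1 and Art overlapped. Tra2a rose by 0.94 (SE 0.09, limma adjusted p = 0.000598) in DOX_shBCLAF1 against DOX. It differed by 0.10 (SE 0.11, limma adjusted p = 0.493) in Art_shBCLAF1 against Art. In DOX against NoDOX it fell by 0.50 (SE 0.10, limma adjusted p = 0.0256), a call lost without DOX replicate 3 or any NoDOX replicate (limma adjusted p up to 0.139).

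Tra2b had 6.72, 6.67 and 6.74 log2 CPM in DOX_shBCLAF1, 6.30, 5.83 and 5.96 in DOX, 6.98, 6.82 and 6.89 in Art_shBCLAF1, 5.99, 5.95 and 5.55 in Art and 6.24, 6.36 and 6.44 in NoDOX libraries. Its labelled libraries were above the unlabelled ones in both lines. The rise was 0.68 (SE 0.12, limma adjusted p = 0.00468) in DOX_shBCLAF1 against DOX and 1.07 (SE 0.15, limma adjusted p = 0.00217) in Art_shBCLAF1 against Art, and both calls passed in all 6 fits that left out 1 library. Within a library, Tra2a exceeded Tra2b by 0.67 ± 0.04 in DOX_shBCLAF1, 0.41 ± 0.12 in DOX, 0.17 ± 0.05 in Art_shBCLAF1, 1.15 ± 0.28 in Art and 0.58 ± 0.15 in NoDOX libraries (log2 CPM difference not scaled for length, SD, n = 3). The balance of the pair thus shifted toward Tra2b in Art_shBCLAF1 and toward Tra2a in DOX_shBCLAF1, each relative to its own unlabelled group.

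Srrm1 and Srrm2, large nuclear coactivators with long repeats of serine and arginine, gave no call in any of the 4 comparisons. Srrm2, among the most abundant members, had 10.49, 10.54 and 10.59 log2 CPM in DOX_shBCLAF1, 10.30, 10.42 and 10.23 in DOX, 10.40, 10.51 and 10.53 in Art_shBCLAF1, 10.61, 10.51 and 9.58 in Art and 10.83, 10.63 and 10.75 in NoDOX libraries. Srrm1 ranged over 8.73 to 8.87 in DOX_shBCLAF1, 8.64 to 8.84 in DOX, 8.88 to 9.01 in Art_shBCLAF1, 7.59 to 8.75 in Art and 8.76 to 8.98 in NoDOX libraries. Art replicate 3 was the lowest library for both genes. The differences in DOX_shBCLAF1 against DOX were 0.07 (SE 0.08, limma adjusted p = 0.436) for Srrm1 and 0.23 (SE 0.09, limma adjusted p = 0.0642) for Srrm2. Without Art replicate 3, Srrm1 differed by 0.27 (limma adjusted p = 0.00437) in Art_shBCLAF1 against Art.

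The kinases did not move as a class with the SR proteins they phosphorylate. In Art_shBCLAF1 against Art, all 4 Clk genes and Srpk2 were lower and Srpk1 was higher. In DOX_shBCLAF1 against DOX, Srpk1 was higher, Srpk2 and Clk1 were lower, and the other 3 Clk genes did not pass. In DOX against NoDOX, Clk1, Clk2 and Clk4 were lower.

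Clk1, a nuclear kinase that autophosphorylates and regulates its own splicing, had 8.07, 7.96 and 7.98 log2 CPM in DOX_shBCLAF1, 8.25, 8.56 and 8.26 in DOX, 7.45, 7.87 and 7.41 in Art_shBCLAF1, 9.07, 9.08 and 8.0 in Art and 9.11, 9.05 and 9.20 in NoDOX libraries. NoDOX libraries and Art replicates 1 and 2 were highest, and Art replicate 3 lay nearer to the Art_shBCLAF1 libraries. Clk1 fell by 0.35 (SE 0.10, limma adjusted p = 0.0234) in DOX_shBCLAF1 against DOX, a call lost without any 1 of the DOX_shBCLAF1 replicates (limma adjusted p up to 0.0852). In the Art-/- line it fell by 1.14 (SE 0.32, limma adjusted p = 0.0276). That call was lost when any 1 library other than Art replicate 3 was left out (limma adjusted p up to 0.0959), and without Art replicate 3 the fall was 1.5 (limma adjusted p = 4.87e-07). Clk1 also fell by 0.76 (SE 0.11, limma adjusted p = 0.0104) in DOX against NoDOX, a call lost without NoDOX replicate 1, NoDOX replicate 3 or DOX replicate 3 (limma adjusted p up to 0.0851).

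Clk4, the closest paralog of Clk1, had 6.67, 6.55 and 6.49 log2 CPM in DOX_shBCLAF1, 6.39, 6.57 and 6.43 in DOX, 6.06, 6.29 and 6.09 in Art_shBCLAF1, 7.33, 7.34 and 6.44 in Art and 7.04, 6.92 and 7.10 in NoDOX libraries. As for Clk1, Art replicates 1 and 2 were high and replicate 3 was not. Clk4 fell by 0.89 (SE 0.26, limma adjusted p = 0.0313) in Art_shBCLAF1 against Art, and by 1.19 without Art replicate 3 (limma adjusted p = 9.53e-08); leaving out any other library of that comparison lost the call (limma adjusted p up to 0.105). It fell by 0.55 (SE 0.08, limma adjusted p = 0.0118) in DOX against NoDOX, a call lost without DOX replicate 3, NoDOX replicate 1 or NoDOX replicate 3 (limma adjusted p up to 0.0945). In DOX_shBCLAF1 against DOX it differed by 0.11 (SE 0.08, limma adjusted p = 0.258), with overlapping groups.

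Clk2 and Clk3 behaved otherwise in the odd library. Clk2 had 7.30, 7.22 and 7.2 log2 CPM in DOX_shBCLAF1, 7.03, 7.15 and 6.99 in DOX, 7.08, 7.11 and 7.08 in Art_shBCLAF1, 7.71, 7.59 and 8.32 in Art and 7.57, 7.39 and 7.49 in NoDOX libraries. Clk3 had 6.65, 6.54 and 6.58 in DOX_shBCLAF1, 6.58, 6.43 and 6.51 in DOX, 6.54, 6.52 and 6.55 in Art_shBCLAF1, 6.90, 6.85 and 7.37 in Art and 6.72, 6.56 and 6.67 in NoDOX libraries. For both genes all Art libraries were above all Art_shBCLAF1 libraries, and Art replicate 3 was the highest of all 15. With the label in the Art-/- line, Clk2 fell by 0.78 (SE 0.20, limma adjusted p = 0.0204) and by 0.56 without Art replicate 3 (limma adjusted p = 6.31e-06), and lost its call without any 1 of the Art_shBCLAF1 replicates (limma adjusted p up to 0.0731). Clk3 fell by 0.50 (SE 0.16, limma adjusted p = 0.0419) and by 0.34 without Art replicate 3 (limma adjusted p = 0.000229), and lost its call without Art replicate 1 or any Art_shBCLAF1 replicate (limma adjusted p up to 0.122). Clk2 fell by 0.43 (SE 0.08, limma adjusted p = 0.0215) in DOX against NoDOX, a call lost without DOX replicate 3, NoDOX replicate 1 or NoDOX replicate 3 (limma adjusted p up to 0.127). Clk3 differed there by -0.14 (SE 0.08, limma adjusted p = 0.219).

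Srpk1 and Srpk2, the cytoplasmic SR protein kinases, moved in opposite directions with the label in both lines. Srpk1 had 7.76, 7.86 and 7.86 log2 CPM in DOX_shBCLAF1, 7.41, 6.90 and 7.05 in DOX, 7.58, 7.54 and 7.57 in Art_shBCLAF1, 7.07, 7.09 and 6.37 in Art and 6.98, 6.88 and 7.05 in NoDOX libraries. Srpk2 had 6.2, 6.19 and 6.22 in DOX_shBCLAF1, 6.66, 6.90 and 6.81 in DOX, 6.47, 6.54 and 6.6 in Art_shBCLAF1, 7.25, 7.26 and 6.77 in Art and 7.04, 7.08 and 7.09 in NoDOX libraries. Labelled and unlabelled libraries of a line did not overlap for either gene.

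The log2 fold changes in DOX_shBCLAF1 against DOX were 0.71 for Srpk1 (SE 0.13, limma adjusted p = 0.00552) and -0.59 for Srpk2 (SE 0.07, limma adjusted p = 0.00156), and both calls passed in all 6 fits that left out 1 library. The changes in Art_shBCLAF1 against Art were 0.72 for Srpk1 (SE 0.21, limma adjusted p = 0.0319) and -0.56 for Srpk2 (SE 0.16, limma adjusted p = 0.0308), or 0.48 (limma adjusted p = 1.16e-05) and -0.72 (limma adjusted p = 9.48e-07) without Art replicate 3. There the call for Srpk1 was lost without any 1 of the Art_shBCLAF1 replicates (limma adjusted p up to 0.10) and with libraries centred on their medians (limma adjusted p = 0.074), and that for Srpk2 without any 1 library other than Art replicate 3 (limma adjusted p up to 0.111). Within a library Srpk1 minus Srpk2 was 1.62 ± 0.06 in DOX_shBCLAF1, 0.33 ± 0.39 in DOX, 1.03 ± 0.07 in Art_shBCLAF1, -0.25 ± 0.13 in Art and -0.10 ± 0.09 in NoDOX libraries (log2 CPM difference not scaled for length, SD, n = 3). Clk1 minus Srpk1 was 0.17 ± 0.11 in DOX_shBCLAF1, 1.23 ± 0.42 in DOX, 0.02 ± 0.28 in Art_shBCLAF1, 1.87 ± 0.21 in Art and 2.15 ± 0.02 in NoDOX libraries. Relative to Clk1 and to Srpk2, Srpk1 was thus highest in the libraries labelled shBCLAF1.

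**Figure D4:**
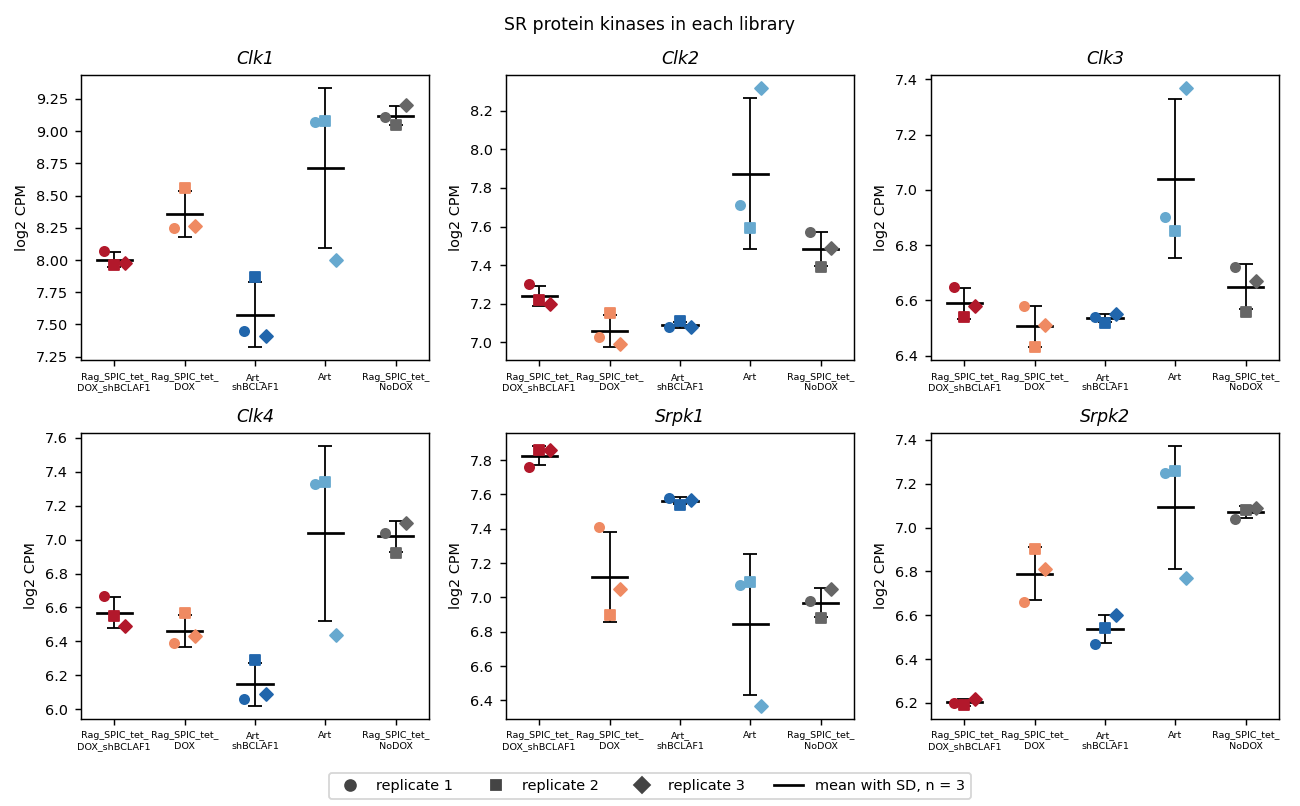
Each panel shows 1 kinase gene, with the log2 CPM of every library by group, the replicate number as the marker's shape, and the group mean with its SD (n = 3) as lines. Srpk1 is high and Srpk2 low in the libraries labelled shBCLAF1, Clk1 is highest in NoDOX libraries and Art replicates 1 and 2, and Art replicate 3 departs from its group in all 6 panels.

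Among the genes that recognise the 3′ splice site and branch point, those called with the label were all higher when no library was left out. Over all genes, 28.5% were higher and 25.1% lower in DOX_shBCLAF1 against DOX, and 25% and 24.1% in Art_shBCLAF1 against Art. Without Art replicate 3 the latter shares were 40.6% and 39.5%. In each of these comparisons, 8 of the 12 U2af and Sf3 genes were higher and none lower. The class medians were 0.55 and 0.83, against 0.05 over all genes in both. Without Art replicate 3, 10 were higher in the second comparison, and Sf3b1 and U2af1l4 were lower, at -0.22 (limma adjusted p = 0.00681) and -0.25 (limma adjusted p = 0.0173); U2af1l4, a paralog of U2af1, is named here after its value was seen.

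Sf3a1, the SF3a subunit that contacts the U1 snRNP, had 8.14, 8.19 and 8.24 log2 CPM in DOX_shBCLAF1, 7.85, 7.34 and 7.68 in DOX, 8.46, 8.29 and 8.40 in Art_shBCLAF1, 6.86, 6.79 and 7.60 in Art and 7.10, 6.96 and 6.93 in NoDOX libraries. The 3 DOX libraries lay between the NoDOX libraries and the DOX_shBCLAF1 libraries, with no overlap. Sf3a1 was higher by 0.57 (SE 0.13, limma adjusted p = 0.0115) in DOX_shBCLAF1 against DOX and by 1.30 (SE 0.23, limma adjusted p = 0.00483) in Art_shBCLAF1 against Art. It was the 1 member called higher in DOX against NoDOX, at 0.63 (SE 0.13, limma adjusted p = 0.0286), a call lost without DOX replicate 3 or any NoDOX replicate (limma adjusted p up to 0.142).

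Sf3a2, the SF3a subunit near the branch point, had 7.69, 7.73 and 7.86 log2 CPM in DOX_shBCLAF1, 7.16, 6.76 and 6.95 in DOX, 7.48, 7.44 and 7.44 in Art_shBCLAF1, 6.58, 6.44 and 6.12 in Art and 6.70, 6.68 and 6.6 in NoDOX libraries. Sf3b6, a small subunit bound to SF3B1, had 6.35, 6.33 and 6.30 in DOX_shBCLAF1, 5.86, 5.56 and 5.44 in DOX, 6.62, 6.45 and 6.55 in Art_shBCLAF1, 5.24, 5.13 and 4.80 in Art and 5.16, 5.44 and 5.38 in NoDOX libraries. U2af1, the small U2AF subunit that reads the AG, had 4.77, 4.65 and 4.69 in DOX_shBCLAF1, 4.24, 3.43 and 3.65 in DOX, 4.86, 4.75 and 4.61 in Art_shBCLAF1, 3.54, 3.31 and 3.40 in Art and 3.75, 3.64 and 3.77 in NoDOX libraries. For all 3 genes every labelled library was above every library without the label. The rises in DOX_shBCLAF1 against DOX were 0.81 for Sf3a2 (SE 0.11, limma adjusted p = 0.00196), 0.71 for Sf3b6 (SE 0.11, limma adjusted p = 0.0032) and 0.93 for U2af1 (SE 0.20, limma adjusted p = 0.00975). In Art_shBCLAF1 against Art they were 1.08 for Sf3a2 (SE 0.15, limma adjusted p = 0.00173), 1.49 for Sf3b6 (SE 0.15, limma adjusted p = 0.000626) and 1.33 for U2af1 (SE 0.14, limma adjusted p = 0.000716). These 6 calls, and those of Sf3a1 with the label in both lines, passed in every fit that left out 1 library.

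U2af2, the large U2AF subunit that binds the polypyrimidine tract, had 7.88, 7.81 and 7.79 log2 CPM in DOX_shBCLAF1, 7.48, 7.23 and 7.48 in DOX, 7.83, 7.68 and 7.84 in Art_shBCLAF1, 7.28, 7.27 and 7.78 in Art and 7.12, 7.03 and 7.08 in NoDOX libraries. It rose by 0.43 (SE 0.09, limma adjusted p = 0.00712) in DOX_shBCLAF1 against DOX. The difference of 0.34 (SE 0.17, limma adjusted p = 0.142) in Art_shBCLAF1 against Art became 0.51 (limma adjusted p = 2.46e-05) without Art replicate 3, which overlapped the labelled libraries. Sf3b1, the SF3b subunit that contacts the branch point, had 9.35, 9.36 and 9.31 in DOX_shBCLAF1, 9.37, 9.36 and 9.32 in DOX, 9.36, 9.43 and 9.40 in Art_shBCLAF1, 9.61, 9.63 and 8.72 in Art and 9.52, 9.51 and 9.55 in NoDOX libraries. Sf3b1 differed by -0.01 (SE 0.06, limma adjusted p = 0.895) in DOX_shBCLAF1 against DOX, beside rises of its partners Sf3b6 and Sf3a1. Sf3b2 (0.10, SE 0.07, limma adjusted p = 0.253) and Sf3b5 (0.14, SE 0.10, limma adjusted p = 0.283) did not pass there either.

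Most of the called hnRNP genes were higher with the label. In DOX_shBCLAF1 against DOX, 11 of 20 were higher and 2 lower, with a median of 0.32. In Art_shBCLAF1 against Art, 14 were higher and 1 lower, with a median of 0.73, and without Art replicate 3 the counts were 17 and 3. The shares of all genes higher and lower were 28.5% and 25.1% in the first comparison and 25% and 24.1% in the second. The median of all genes was 0.05 in both. Without Art replicate 3 the shares in the second were 40.6% and 39.5%. Hnrnpa1, an exon repressor, had 4.13, 4.15 and 4.21 log2 CPM in DOX_shBCLAF1, 3.57, 2.20 and 3.15 in DOX, 4.77, 4.37 and 4.73 in Art_shBCLAF1, 2.98, 3.05 and 3.47 in Art and 3.43, 3.01 and 3.18 in NoDOX libraries. The labelled libraries were above all others. It rose by 1.19 (SE 0.33, limma adjusted p = 0.0225) in DOX_shBCLAF1 against DOX, where the call was lost without DOX replicate 3 or any DOX_shBCLAF1 replicate (limma adjusted p up to 0.0719), and by 1.46 (SE 0.20, limma adjusted p = 0.00173) in Art_shBCLAF1 against Art.

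Hnrnpab, an abundant A/B-type protein, had 9.31, 9.38 and 9.38 log2 CPM in DOX_shBCLAF1, 8.87, 8.03 and 8.57 in DOX, 9.47, 9.29 and 9.36 in Art_shBCLAF1, 7.71, 7.61 and 8.37 in Art and 7.93, 7.90 and 7.94 in NoDOX libraries. Hnrnpa2b1, a core hnRNP that also takes part in mRNA transport, had 10.40, 10.46 and 10.47 in DOX_shBCLAF1, 10.24, 9.66 and 9.99 in DOX, 10.71, 10.56 and 10.75 in Art_shBCLAF1, 9.66, 9.65 and 8.66 in Art and 9.81, 9.82 and 9.91 in NoDOX libraries. Both were above their unlabelled groups in every labelled library. Hnrnpab rose by 0.87 (SE 0.20, limma adjusted p = 0.012) in DOX_shBCLAF1 against DOX and by 1.48 (SE 0.22, limma adjusted p = 0.0023) in Art_shBCLAF1 against Art. Hnrnpa2b1 rose by 0.48 (SE 0.15, limma adjusted p = 0.0329) and by 1.35 (SE 0.29, limma adjusted p = 0.00941) in these comparisons; the first call was lost without DOX replicate 3 or any DOX_shBCLAF1 replicate (limma adjusted p up to 0.102).

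Hnrnpd, also known as AUF1 and a binder of AU-rich elements, had 7.95, 8.03 and 8.14 log2 CPM in DOX_shBCLAF1, 8.01, 7.35 and 7.75 in DOX, 8.60, 8.45 and 8.61 in Art_shBCLAF1, 7.32, 7.23 and 7.13 in Art and 7.50, 7.56 and 7.49 in NoDOX libraries. The groups overlapped in the Rag-/- SPIC line and did not in the Art-/- line. The log2 fold change was 0.34 (SE 0.16, limma adjusted p = 0.119) in DOX_shBCLAF1 against DOX and 1.33 (SE 0.11, limma adjusted p = 0.000358) in Art_shBCLAF1 against Art. Hnrnpul1 was lower in DOX_shBCLAF1 than in DOX cells (-0.48, SE 0.11, limma adjusted p = 0.0115; without DOX_shBCLAF1 replicate 2, limma adjusted p = 0.0524), and Hnrnph3 was lower in Art_shBCLAF1 than in Art cells (-0.60, SE 0.13, limma adjusted p = 0.00858). In DOX against NoDOX, Hnrnph1, which binds G-rich runs, was the 1 hnRNP called, at -0.34 (SE 0.08, limma adjusted p = 0.0421), and this was lost without DOX replicate 3 or any NoDOX replicate (limma adjusted p up to 0.198).

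Hnrnpll moved in opposite directions in the 2 lines. It had 3.59, 3.43 and 3.45 log2 CPM in DOX_shBCLAF1, 4.23, 4.81 and 4.66 in DOX, 5.52, 5.24 and 5.39 in Art_shBCLAF1, 3.82, 3.88 and 4.14 in Art and 4.16, 4.18 and 4.24 in NoDOX libraries. DOX_shBCLAF1 libraries were the lowest of all 15 and Art_shBCLAF1 libraries the highest. Hnrnpll fell by 1.07 (SE 0.16, limma adjusted p = 0.00258) in DOX_shBCLAF1 against DOX and rose by 1.44 (SE 0.15, limma adjusted p = 0.000667) in Art_shBCLAF1 against Art, and both calls passed in every fit that left out 1 library. It was the 1 member called in opposite directions, as were 489 of all 11551 genes (4.23%).

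The label effects in the 2 lines use separate libraries and can be set side by side. Of the members, 21 were higher in both, which is 75% of the 28 higher in DOX_shBCLAF1 against DOX and 77.8% of the 27 higher in Art_shBCLAF1 against Art. Over all genes, 1505 were higher in both, or 45.7% and 52.2% of the calls in the 2 comparisons. Clk1 and Srpk2 were lower in both, or 50% of the 4 and 33.3% of the 6 lower calls, where the shares over all genes were 45.8% and 47.7%. A further 11 members (21.2%) passed in neither, as did 26.2% of all genes. The difference of the label effects was tested with limma over the 12 libraries. It was called positive, that is higher in the Rag-/- SPIC line, for 6 members and negative for 7. Over all genes, 17% were positive and 14.3% negative. Without Art replicate 3 the counts were 13 and 19, beside 27.8% and 26.6% of all genes. With libraries centred on their medians they were 6 and 4, and the shares of all genes in that fit are not given here.

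To account for every member by its calls, the 21 that were higher in both lines were Srsf1, Srsf3, Srsf6, Tra2b, Srpk1, U2af1, Sf3a1, Sf3a2, Sf3a3, Sf3b3, Sf3b4, Sf3b6, Hnrnpa1, Hnrnpa2b1, Hnrnpab, Hnrnpc, Hnrnpdl, Hnrnpf, Hnrnpm, Hnrnpr and Hnrnpu. They thus held all 3 SF3a genes, the small U2AF subunit, and members of each class but the SR-repetitive matrix proteins. In DOX_shBCLAF1 against DOX and not in the other line, Srsf5, Srsf7, Srsf10, Tra2a, U2af2, Hnrnpa0 and Hnrnph1 were called higher and Hnrnpul1 lower. In the other line and not in this one, Sf3b2, Hnrnpd, Hnrnpk, Hnrnpl and Hnrnpul2 were called higher and Clk2, Clk3, Clk4 and Hnrnph3 lower. A call in 1 line alone does not show that the lines differ, which the interaction tests directly. The members called in neither were Srsf2, Srsf4, Srsf9, Srsf11, Srrm1, Srrm2, Sf3b1, Sf3b5, U2af1l4, Hnrnpa3 and Hnrnph2. Within classes the log2 fold changes in DOX_shBCLAF1 against DOX spanned -0.21 to 1.38 for SR genes, -0.15 to 0.93 for U2af and Sf3 genes and -1.07 to 1.19 for hnRNPs, and those in Art_shBCLAF1 against Art spanned -0.46 to 1.12, -0.30 to 1.49 and -0.60 to 1.48.

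Hnrnpll and the kinases Clk4 and Clk2 stood at the 2 ends of the called differences. Among the called members Hnrnpll differed most, at -2.51 (SE 0.23, limma adjusted p = 4.56e-05), followed by Hnrnpd at -0.99 (SE 0.21, limma adjusted p = 0.0052) and Sf3b6 at -0.78 (SE 0.19, limma adjusted p = 0.0119). The largest called positive differences were Clk4 at 1.0 (SE 0.29, limma adjusted p = 0.0237), Clk2 at 0.96 (SE 0.22, limma adjusted p = 0.0085), Srsf6 at 0.85 (SE 0.15, limma adjusted p = 0.00212) and Tra2a at 0.84 (SE 0.14, limma adjusted p = 0.00136). For Hnrnpll, Hnrnpd, Sf3b6, Clk2, Srsf6 and Tra2a the call passed in all 12 fits that left out 1 library, and for Clk4 in 7 of 12 (limma adjusted p up to 0.0593, without DOX replicate 1 or 3, DOX_shBCLAF1 replicate 1, or Art_shBCLAF1 replicate 1 or 3). The difference for Srpk1 was -0.01 (SE 0.26, limma adjusted p = 0.987) and that for Srpk2 -0.03 (SE 0.19, limma adjusted p = 0.914). Both were smaller than their errors in this fit, but the value for Srpk1 was 0.23 (limma adjusted p = 0.24) without Art replicate 3 and 0.30 with array weights, where it was called.

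**Figure D5:**
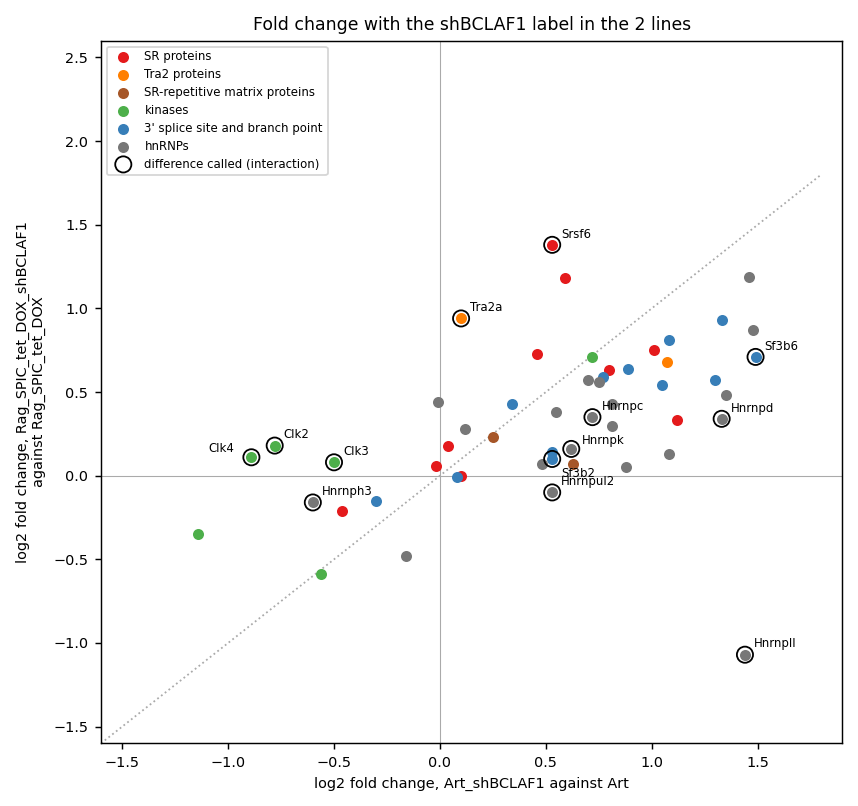
Each point is 1 of the 52 members, with its log2 fold change in Art_shBCLAF1 against Art on the horizontal axis and that in DOX_shBCLAF1 against DOX on the vertical axis, coloured by class; rings mark the 13 members whose difference was called and the dotted line marks equal change. Most points lie in the upper right of the plot, Hnrnpll lies far below the line, and Clk2, Clk4, Srsf6 and Tra2a lie above it.

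Further genes of the splicing machinery were counted for the same comparisons. Of 12 U1, U2 and Sm snRNP proteins, 8 were higher in DOX_shBCLAF1 against DOX (median 0.57) and 9 in Art_shBCLAF1 against Art (median 1.20), with none lower. Snrpd1, a core Sm protein, rose by 1.03 (SE 0.26, limma adjusted p = 0.0172) in the Rag-/- SPIC line and by 3.51 (SE 0.39, limma adjusted p = 0.000866) in the Art-/- line. Of 22 proteins of the tri-snRNP, the Prp19 complex and the spliceosomal helicases, 15 were higher in the Rag-/- SPIC line and 12 in the Art-/- line, with none lower. Prpf19, the ubiquitin ligase of its complex, rose by 0.77 (SE 0.10, limma adjusted p = 0.00177) in the Rag-/- SPIC line and by 1.20 (SE 0.18, limma adjusted p = 0.00255) in the Art-/- line. With all libraries, the called genes of both lists were thus higher with the label, as were those among the U2af and Sf3 genes. Over all genes, 28.5% were higher in DOX_shBCLAF1 against DOX and 25% in Art_shBCLAF1 against Art, with a median of 0.05 in both. Lower calls were 25.1% and 24.1%. Without Art replicate 3, 2 tri-snRNP genes were called lower in the Art-/- line, and so were Sf3b1 and U2af1l4.

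Regulators outside the main families were called in both directions. Their counts stand beside 28.5% of all genes higher and 25.1% lower in DOX_shBCLAF1 against DOX, and 25% and 24.1% in Art_shBCLAF1 against Art. Of 20 other SR-related proteins, 11 were higher and 1 lower in DOX_shBCLAF1 against DOX, and 3 higher and 3 lower in Art_shBCLAF1 against Art. Sfswap, the homolog of fly suppressor-of-white-apricot, fell by 1.07 (SE 0.24, limma adjusted p = 0.0113) in the Art-/- line. Of 25 other RNA-binding regulators, 10 were higher and 4 lower in the Rag-/- SPIC line, and 8 higher and 2 lower in the Art-/- line. Sfpq, a paraspeckle protein, rose by 0.92 (SE 0.08, limma adjusted p = 0.000522) in DOX_shBCLAF1 against DOX and by 0.97 (SE 0.22, limma adjusted p = 0.0122) in Art_shBCLAF1 against Art, and Rbm5 fell by 1.09 (SE 0.16, limma adjusted p = 0.00218) in Art_shBCLAF1 against Art. Of 10 nonsense-mediated decay factors, 2 were higher and 2 lower in the Rag-/- SPIC line, and none higher and 1 lower in the Art-/- line. Without DOX replicate 2, the counts of decay factors in the Rag-/- SPIC line were 4 higher and 0 lower. In DOX against NoDOX, Luc7l2 (-0.57, SE 0.09, limma adjusted p = 0.0134) and Luc7l3 (-0.32, SE 0.08, limma adjusted p = 0.0401), homologs of a yeast U1 snRNP protein, were lower, and Ddx42, a helicase, was at -0.28 (SE 0.06, limma adjusted p = 0.0349). Without DOX replicate 2, the counts higher and lower in DOX against NoDOX were 6 and 0 for snRNP proteins, 8 and 1 for the tri-snRNP list, 2 and 4 for SR-related proteins, 7 and 4 for RNA-binding regulators and 1 and 1 for decay factors, beside 20% and 19.6% of all genes. Without Art replicate 3, the counts higher and lower in Art_shBCLAF1 against Art were 12 and 0 for snRNP proteins, 17 and 2 for the tri-snRNP list, 8 and 8 for SR-related proteins, 16 and 6 for RNA-binding regulators and 3 and 2 for decay factors. In that fit 40.6% of all genes were higher and 39.5% lower, so the counts of SR-related proteins were near those shares. Counts for these lists in fits that left out other libraries are not given here.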

How the data were processed

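Gene expression was measured by RNA sequencing in 15 libraries. RNA was purified with RNeasy columns and libraries were made with TruSeq reagents, per the labels' protocols. The submitters' processing notes give the build as mm9 and name featureCounts 1.4.5 with Subread, limma and edgeR, but no roles. The 4 tables deposited by the authors hold log2 values, which are log2 CPM with 0.5 reads added, and every value below 1000 reads (100%) came back as a whole read number to within 0.05. The authors' log2 fold changes and p-values (raw and adjusted, in columns named as limma names them) stand beside them in the deposited tables, which list only genes below an adjusted p of 0.05. Depth was 5.81 to 27.1 M effective reads per library. The column taken as Art replicate 3 is spelled with 1 character other than in the label.

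After merging 152 duplicate rows, the 2 groups of each comparison were fitted with limma 3.58.1 in R 4.3.3 with a mean-variance trend, and p-values were adjusted by the Benjamini-Hochberg method over all 11551 genes. Tests were two-sided, and genes below 0.05 were called. The difference of label effects was an interaction term over 12 libraries. The fit was tested on simulated data. Members and lists were chosen with earlier results of these data known. Named genes were, per class, up to 3 called members at each end, the 3 (hnRNPs 5) with the widest range of group means, and a short list of standing names; other lists were limited to 3 at each end. Alternatives were another offset, a low-value filter, array weights, median centring, no trend, 1 fit over all libraries, a replicate block and leaving out each library. Promoter sequences are from RefSeq, GRCm38.p6. Exon overlaps and shared windows were computed from the GENCODE M21 annotation.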

Additional observations from a re-analysis of the deposited data

Results flagged for a closer look

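The effect of the shBCLAF1 label differed between the Rag-/- SPIC line under doxycycline and the Art-/- line for 13 of the 52 members, by a limma interaction test with adjustment over all 11551 genes. Over all genes the same test called 17% positive and 14.3% negative, and the shares of the members were not above these. Each value is the log2 fold change in DOX_shBCLAF1 against DOX minus that in Art_shBCLAF1 against Art. The difference was negative for Hnrnpll (-2.51), Hnrnpd (-0.99), Sf3b6 (-0.78), Hnrnpul2 (-0.63), Hnrnpk (-0.46), Sf3b2 (-0.43) and Hnrnpc (-0.37). It was positive for Clk4 (1.0), Clk2 (0.96), Srsf6 (0.85), Tra2a (0.84), Clk3 (0.59) and Hnrnph3 (0.45). Of these 13, 8 passed in all 12 fits that left out 1 library, and Hnrnpc and Hnrnph3 passed in 3 of 12. The 12 proliferation genes moved with the same contrast, with 7 negative, none positive and a median of -1.59, and so did the 5 myeloid markers in the tables, with 4 negative and 1 positive. In the other direction, 5 of 7 B-lineage markers were positive and none negative (median 1.29), and both T and NK markers in the tables were positive (median 2.34). Their part in the 13 differences was not tested.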

How the results depend on the processing

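Member counts in this section are given without the share of all genes called in each fit. A change in the members therefore cannot be told apart here from a change over all genes. A limma fit with array weights, whose estimation stopped before full convergence, called 26 members in Art against NoDOX where 0 passed without weights, 47 in DOX against NoDOX (9 without), 50 in Art_shBCLAF1 against Art (33) and 43 in the interaction (13). A single fit over all 15 libraries called 4 in Art against NoDOX, and the fit without a trend called 5 in DOX against NoDOX. Leaving out 1 library at a time gave 0 to 22 calls in Art against NoDOX, 0 to 30 in DOX against NoDOX, 23 to 35 in DOX_shBCLAF1 against DOX, 19 to 49 in Art_shBCLAF1 against Art, where 19 came without Art_shBCLAF1 replicate 1 and 20 without replicate 3, and 8 to 32 in the interaction, where 8 came without DOX replicate 3 and 32 without Art replicate 3. Centring libraries on their medians moved the median of all genes in Art_shBCLAF1 against Art to -0.18 and the calls to 19 higher and 8 lower. Correlations of deviations between libraries with the same replicate number ran from -0.23 to 0.20, with no comparison over 0.1 in every pair. They showed no pairing by number, but with 3 libraries per group they cannot exclude it. A fit with the number as a replicate block called 0 members in Art against NoDOX and 0 in DOX against NoDOX. It called 29 in DOX_shBCLAF1 against DOX, 27 in Art_shBCLAF1 against Art and 11 in the interaction. Of 3692 member values recomputed, 27 reversed, which means a changed sign with a call in the main fit or in the alternative. Changes of sign without a call in either fit were not counted. In Art against NoDOX these were Srsf4 (-0.14) and Sf3b5 (-0.43) with weights, and Sf3a1 (-0.17), Srsf4 (-0.17) and Sf3b5 (-0.49) without Art replicate 3, where leaving out other libraries gave up to 0.24, 0.12 and 0.58 for these genes. In Art_shBCLAF1 against Art they were Srsf5 (-0.23), Sf3b1 (-0.22), Srsf9 (0.52) and Srsf11 (-0.16) with weights, and Srsf5 (-0.21, other fits up to 0.17), Sf3b1 (-0.22, up to 0.23), Srsf9 (0.53, down to -0.33) and Srsf11 (-0.15, up to 0.25) without Art replicate 3. In the interaction they were Srpk1 (0.30), Hnrnpa0 (-0.46), Sf3b1 (0.24), Srsf10 (0.50), Srsf9 (-0.50), U2af2 (-0.20), Srsf2 (0.70), Srrm2 (0.40) and Srsf11 (0.17) with weights, and Hnrnpa0 (-0.35, other fits up to 0.42), Sf3b1 (0.21, down to -0.24), Srsf10 (0.44, down to -0.65), Srsf9 (-0.48, up to 0.39) and Srrm2 (0.30, down to -0.21) without Art replicate 3. None of these had passed with all libraries at equal weight, and the cause was not tested.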

Other observations

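The 3 DOX libraries were not alike. For 30 of the 52 members (57.7%) replicate 1 was highest, replicate 3 next and replicate 2 lowest, an order that 33.5% of all genes had. Myc, with 8.06, 3.76 and 6.83 log2 CPM in DOX replicates 1, 2 and 3, had the same order. By class it was found in 13 of 20 hnRNPs, 8 of 12 U2af and Sf3 genes, 5 of 10 SR genes and 2 of 6 kinases. Replicate 1 exceeded replicate 2 by a median of 0.34 log2 units for U2af and Sf3 genes, 0.26 for hnRNPs and 0.15 for SR genes, and by -0.15 for kinases and -0.01 for all genes. The replicate numbers are names and carry no order of their own.

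Without DOX replicate 2, DOX against NoDOX gave 8 of 12 U2af and Sf3 genes higher and none lower, 8 of 20 hnRNPs higher and 2 lower, 1 SR gene higher and 5 lower, and 4 of 6 kinases lower, beside 20% of all genes higher and 19.6% lower in that fit. Hnrnpab was then higher by 0.79 and Sf3a1 by 0.77, and Clk1 lower, at -0.87 (limma adjusted p = 0.000102). In Art against NoDOX without Art replicate 3, Clk4 was at 0.32 (limma adjusted p = 0.000334) and Tra2b at -0.38 (limma adjusted p = 0.000124).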
